A study of Mus musculus with 4 samples.

Results

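Megakaryocyte and erythroid progenitors (MEP cells) from mice given the bromodomain inhibitor JQ1 were compared with MEP cells from mice given its solvent, dimethyl sulfoxide (DMSO). The comparison was chosen by its sample labels and consists of the 2 MEP arrays, of 4 arrays in the series. The other 2 arrays hold the stem and multipotent progenitor cells sorted as LSK (Lineage-, c-Kit+, Sca-1+) after the same treatments and are used here only for reference. Of 21154 genes on the array, 12540 (59.3%) were well above background on both MEP arrays and are called measured.

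MEP cells are the bone marrow progenitors that give rise to megakaryocytes, the source of platelets, and to red blood cells. The factors GATA1 and KLF1 direct the erythroid branch, which fills the cell with globin and heme. JAK2 relays the signals of erythropoietin and related hormones, and its V617F form signals without hormone and drives polycythemia vera, essential thrombocythemia and myelofibrosis. EZH2 is the methyltransferase of Polycomb repressive complex 2, which silences genes through methylation of histone H3. JQ1 displaces the BET bromodomain proteins from acetylated histones. BET proteins help the kinase P-TEFb release paused RNA polymerase II, a step on which rapidly induced genes depend.

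All groups were C57BL/6 mice of genotype JAK2V617F/Ezh2Δ/Δ, so the kinase mutation and the Ezh2 deletion were carried by the DMSO controls too. The donors also carried Cre-ERT2, a tamoxifen-inducible Cre recombinase, and floxed Ezh2. Their total bone marrow was transplanted into wild-type CD45.1+ recipients after lethal irradiation, Ezh2 was then deleted, and JQ1 or DMSO was given for 2 weeks. Bone marrow MEP and LSK cells were sorted by flow cytometry directly afterwards. The MEP arrays are called DMSO MEP and JQ1 MEP, the LSK arrays DMSO LSK and JQ1 LSK, and each is the only array of its group. The number of mice behind an array, their age, and the share of sorted cells that came from the host are not given in the sources used here. With 1 array in each group there is no replicate, so no difference carries a test or a p-value, and every difference compares these arrays rather than the treatments.

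A level is the log2 of a probe's signal relative to the 75th percentile of its array, and each gene is read through its brightest probe. A difference is the JQ1 MEP level minus the DMSO MEP level, reduced by that of the median measured gene, which read 0.34 log2 higher on JQ1 MEP. Folds, and the words higher and lower, are therefore relative to the median gene, and a gene is called at 2-fold. A signed value in parentheses after a gene is its difference in MEP. Levels of different genes are not comparable in height, since probes differ in brightness. The only estimate of error is within the slide. Different probes of the same gene differed by an SD of 0.39 log2 in this comparison, over 3224 genes with at least 2 measured probes, and the scanner software put the error of a spot at a median of 10.1% of its signal. This error does not cover mice, sorting, RNA isolation or labelling. The plain scaling to other references moves the median gene to 0.75 (median probe) or -0.58 (spike-in probes), and adds the same shift to every gene.

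DMSO MEP differed from the remaining arrays in overall signal. It had 53.2% of probes well above background against 45.2% on JQ1 MEP, 45.6% on DMSO LSK and 47.3% on JQ1 LSK. Its 75th percentile signal was 327 against 210 to 245 on the others. It is the only control of the comparison, so no value without it can be given. The MEP label was checked against marker genes. All 7 erythroid markers (among them Gata1, Klf1, Epor and Rhag) and all 6 megakaryocyte markers (among them Pf4, Itga2b and Vwf) were well above background on both MEP arrays. The summed linear signal of the erythroid markers was 165 on DMSO MEP and 235 on JQ1 MEP against 29.7 and 30.9 on the LSK arrays. That of the megakaryocyte markers was 114 and 102 against 18.0 and 12.4. Pf4 made up 91.4 and 73.3 of these MEP sums, and the other 5 markers summed to 22.5 on DMSO MEP and 29.0 on JQ1 MEP. Ly6a, which encodes the Sca-1 antigen used to sort LSK cells, read -0.32 in DMSO MEP, 0.22 in JQ1 MEP, 4.49 in DMSO LSK and 4.28 in JQ1 LSK, so it was low in both MEP samples. Cd34, which was also to be low against LSK, read 6.41 in DMSO MEP, 6.46 in JQ1 MEP, 7.51 in DMSO LSK and 7.92 in JQ1 LSK. It was thus below LSK by less than Ly6a and still bright in both MEP samples. Markers of other marrow cell types are given beside the lists concerned. Such a sum cannot tell fewer cells of a type from less RNA per cell. The sums are not reduced by the median gene, which read 0.34 log2 higher on JQ1 MEP.

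Most genes read alike on the MEP arrays, and the genes that did not were mainly lower after JQ1. At 2-fold, 723 genes (5.77% of those measured) were lower and 123 (0.981%) were higher, while 93.3% lay within 2-fold of the median gene. The number of called members in each list below is to be read against these shares. Lists and members were chosen with earlier results of these data known, so the counts are not independent of the data. Higher and lower calls numbered 373 and 366 without centring, 295 and 480 after quantile normalization, 172 and 561 relative to a curve over signal, 3037 and 172 when scaled to the median probe and 32 and 2476 when scaled to spike-in probes. The middle of the distribution was narrow, with quartiles at -0.32 and 0.24, and its lower tail was longer, with the 5th percentile at -1.07 and the 95th at 0.55. In LSK cells, where the arrays correlated more closely with each other (Pearson r of 0.987 over the 12540 genes, against 0.983 for the MEP pair, as a description), 397 genes (3.22%) were lower and 67 (0.544%) higher. The lowest 10 genes in MEP ran from Malat1 at -3.61 to 5031434O11Rik at -2.87. They held 3 transcription factors and signalling regulators of the rapid response (Fosb, Atf3 and Nr4a1), the NF-kappaB inhibitor Tnfaip3, the nuclear noncoding RNAs Malat1 and Neat1, and 4 genes known by clone names or as a pseudogene.

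**Figure D1:**
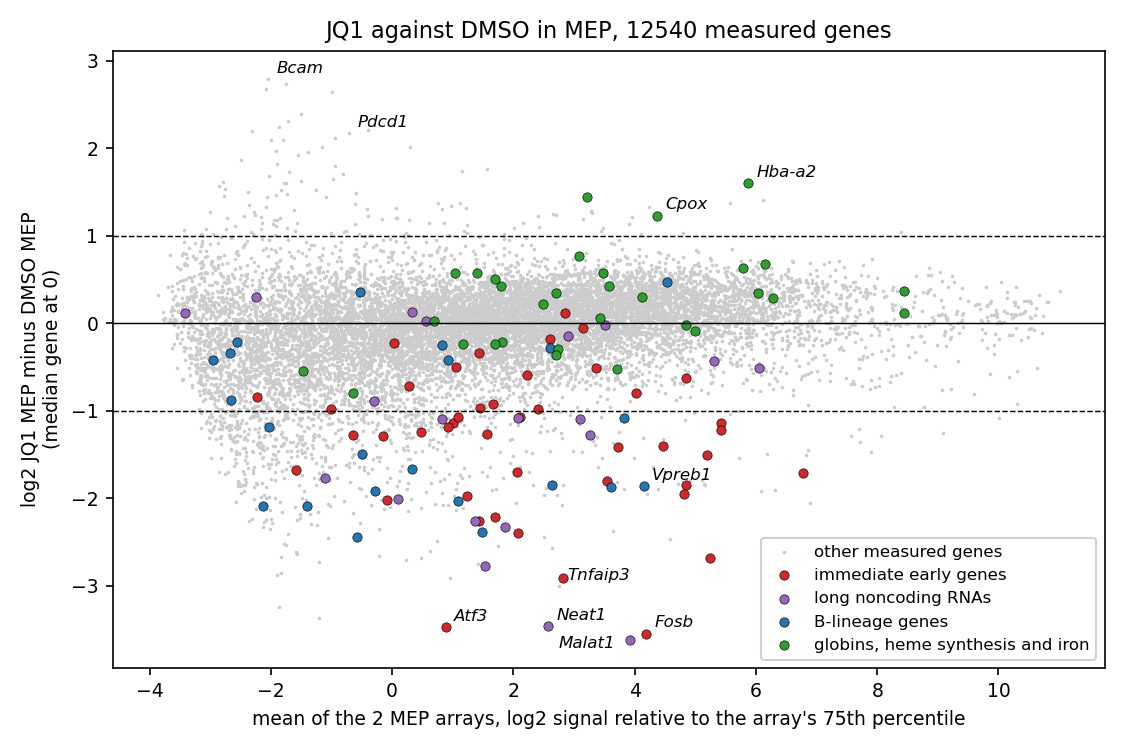
Each point is a measured gene, with the mean level of the MEP arrays on the horizontal axis (log2 relative to the 75th percentile) and the JQ1 minus DMSO difference relative to the median gene on the vertical axis (log2). The 723 genes past 2-fold lower outnumber the 123 past 2-fold higher, and both are mostly dim, while Fosb and Malat1 are lower and bright.

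The calls were concentrated among dim genes. When the measured genes were divided into 10 equal bins by mean MEP signal, the share that was lower was 13% and 14.5% in the dimmest bins and 1.67% and 1.83% in the brightest. The median difference also moved with signal, from -0.22 and -0.29 in the dimmest bins to 0.17 and 0.13 in the brightest. A small positive median of a list of bright genes is therefore close to that of any bright genes. The 10 highest genes were all dim and were read by 1 probe each. Bcam, a laminin-binding blood group protein of red cells, was the highest at -3.61 in DMSO MEP, -0.48 in JQ1 MEP, -2.45 in DMSO LSK and -2.76 in JQ1 LSK, a difference of 2.79. Tnni1 and Fabp6, a muscle and an intestinal gene, followed in the same range (2.39 and 2.67). Where a gene had at least 2 measured probes, the probes of lower genes concurred more often than those of higher genes. Of 115 such lower genes, all probes of 101 were on the same side of the median gene and all probes of 47 were past 2-fold. Of 16 such higher genes, these numbers were 11 and 5. The brightest probe, on which a gene is called, is counted among its probes and lies on that side by definition. The contrast rests on few higher genes and was not tested. Of the 529 genes with at least 3 measured probes, 4 had every probe at least 2-fold lower and none had every probe 2-fold higher. These were Dclre1c (-1.11), the nuclease Artemis of DNA end joining, Gcm1 (-1.80), a placental transcription factor, Lgals4 (-2.66), a galectin, and Npb (-1.34), a neuropeptide.

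Some genes were above background on 1 MEP array only, with no probe above background on the other. For these the fold is a bound. It is taken against the lowest signal above background on the other array, or the probe's own reading there if higher. Those with a bound above 1-fold numbered 1084 on DMSO MEP and 241 on JQ1 MEP. By this bound 345 were at least 2-fold lower and 145 at least 2-fold higher. Among the higher, Il2ra, the alpha chain of the interleukin 2 receptor, was at least 13.9-fold higher. Its level was -0.11 on JQ1 MEP and -4.85 on DMSO MEP. On the LSK arrays Il2ra read -2.09 and -2.90. Among the lower, the retinal arrestin gene Sag (at least 12.2-fold) and the oviduct glycoprotein gene Ovgp1 (at least 11.3-fold) were seen on DMSO MEP alone.

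The lower genes were set against the LSK arrays, which took no part in calling them. Of 660 lower genes above background on all 4 arrays, 550 (83.3%) were highest on DMSO MEP, compared with 24.3% of all 12011 genes measured on all arrays. Calling a gene lower by itself favours that position. With the median gene of each array at 0, the lower genes read a median of 0.85 log2 above the mean of the LSK arrays on DMSO MEP and 0.50 below it on JQ1 MEP. The median distance from LSK was larger on DMSO MEP, on which the genes stood above LSK cells. Both MEP arrays took part in calling these genes, so these medians are not independent of the calls. The 85 higher genes had the opposite pattern, with 69 (81.2%) highest on JQ1 MEP against 30.5% of all genes, and medians of -0.29 on DMSO MEP and 1.21 on JQ1 MEP relative to LSK. Whether high values on the DMSO MEP array or low values on the JQ1 MEP array belong to the treatment was not tested.

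Immediate early genes, which cells switch on within minutes of a stimulus without new protein synthesis, had the largest share of lower members among the 51 gene lists. The lists were chosen with earlier results of these data known, so this rank is a description only. Of 51 genes listed, 44 were measured, and 28 of these (63.6%, against 5.77% of all genes) were at least 2-fold lower and none was higher. Their median difference was -1.23, and in LSK cells it was -0.21, with none past 2-fold. The difference between the cell types has no test. Of 42 members above background on all 4 arrays, 36 read highest on DMSO MEP.

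The AP-1 factors, which pair through leucine zippers on promoters and enhancers, were at least 2-fold lower among the listed members, apart from Fosl2 and Mafk. Fosb read 5.79 in DMSO MEP, 2.59 in JQ1 MEP, 3.00 in DMSO LSK and 2.86 in JQ1 LSK. Its difference of -3.54 is 11.7-fold. The DMSO MEP value was the highest of the 4, and the JQ1 MEP value lay just under both LSK values. Atf3, a stress-induced partner and repressor, read 2.45 in DMSO MEP, -0.68 in JQ1 MEP, -0.30 in DMSO LSK and -0.92 in JQ1 LSK (difference -3.47, 11.1-fold), again highest in DMSO MEP, with JQ1 MEP between the LSK arrays. Fos read 5.78 in DMSO MEP, 4.62 in JQ1 MEP, 4.45 in DMSO LSK and 4.29 in JQ1 LSK and differed by -1.51. Jun read 7.46 in DMSO MEP, 6.09 in JQ1 MEP, 6.14 in DMSO LSK and 5.68 in JQ1 LSK and differed by -1.71, so that for both genes JQ1 MEP lay within the range of the LSK arrays or just above it. Junb (-1.28), Jund (-1.14) and the small Maf protein gene Maff (-1.67) were also called, whereas Mafk (-0.97) and Fosl2 (-0.22) were within 2-fold.

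The orphan nuclear receptors and zinc finger factors of the same response were also highest in DMSO MEP. Nr4a1, an orphan receptor induced by calcium and cyclic AMP signals, read 4.10 in DMSO MEP, 1.53 in JQ1 MEP, 1.88 in DMSO LSK and 2.34 in JQ1 LSK (difference -2.91, 7.51-fold). Its relative Nr4a2 differed by -2.26. Klf6 read 6.42 in DMSO MEP, 4.07 in JQ1 MEP, 4.64 in DMSO LSK and 4.26 in JQ1 LSK, a difference of -2.68. Klf4, a Krüppel-like factor of monocyte differentiation and cell cycle exit, read 3.11 in DMSO MEP, 1.05 in JQ1 MEP, 1.71 in DMSO LSK and 0.97 in JQ1 LSK (-2.40), and Klf2 differed by -1.85. Egr1, a growth factor response gene, read 4.27 in DMSO MEP, 2.80 in JQ1 MEP, 3.08 in DMSO LSK and 2.96 in JQ1 LSK (-1.80). For these 4 genes with printed levels DMSO MEP was the highest array. JQ1 MEP was below both LSK arrays, except for Klf4, where it lay between them.

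Genes that end such a response were lower as well. Ppp1r15a, which directs dephosphorylation of the initiation factor eIF2alpha, read 5.62 in DMSO MEP, 4.01 in JQ1 MEP, 3.52 in DMSO LSK and 3.45 in JQ1 LSK (-1.95). Dusp1, a phosphatase of MAP kinases, read 4.26 in DMSO MEP, 3.19 in JQ1 MEP, 2.89 in DMSO LSK and 2.75 in JQ1 LSK (-1.41). Btg2, an antiproliferative recruiter of the mRNA deadenylase, read 2.74 in DMSO MEP, 1.39 in JQ1 MEP, 1.58 in DMSO LSK and 0.85 in JQ1 LSK (-1.69). DMSO MEP was again the highest array for all 3, while JQ1 MEP lay above both LSK arrays for Ppp1r15a and Dusp1 and between them for Btg2. The mRNA decay factors Zfp36 (-1.25) and Zfp36l1 (-1.07) and the G protein regulators Rgs1 (-2.21) and Rgs2 (-1.22) were called. The 16 members within 2-fold ran from Csrnp1 at -0.97 to Cebpb at 0.12, the only one above the median gene, and included Mcl1 (-0.63), Cebpd (-0.06) and Srf (-0.18). The 7 not measured were Fosl1, Egr2, Egr3, Nr4a3, Arc, Ccn1 and Ccn2. In the ERK feedback list, 3 of 13 members were lower (Dusp1, Dusp2 and Spry1), with Dusp6 at -0.98 and Spry2 at -0.97, while the ETS factors Etv4 and Etv5 read 0.45 and 0.16.

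**Figure D2:**
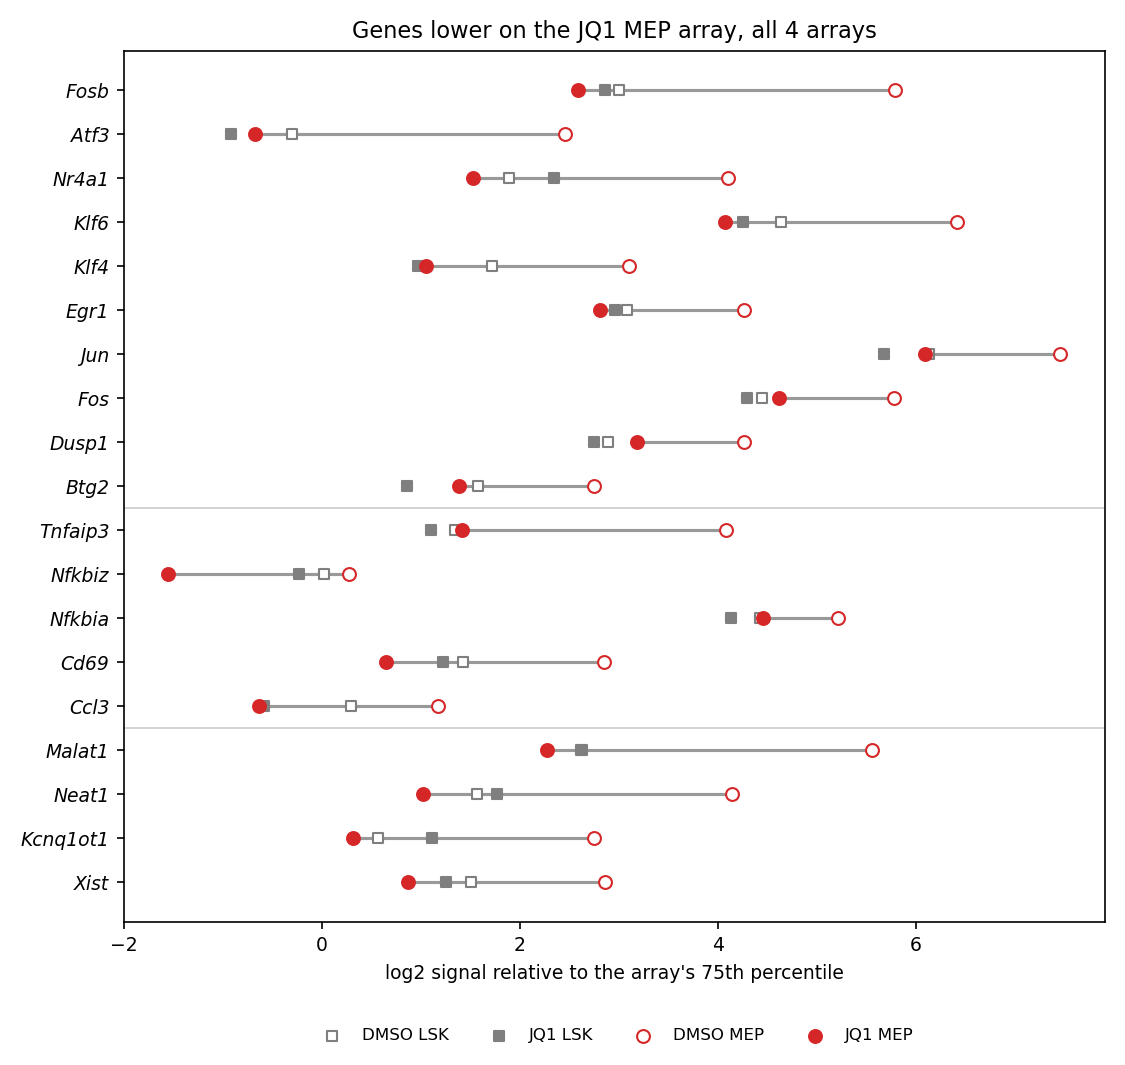
Levels of selected lower immediate early, NF-kappaB, inflammatory and noncoding genes on each of the 4 arrays (log2 relative to the 75th percentile, 1 array in each group). For each gene shown the DMSO MEP point lies to the right of the other 3, for example at 5.79 for Fosb, where the others lie between 2.59 and 3.00.

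Promoters of 5 of these genes are shown because they hold a sequence element that was more frequent in the list than among measured genes and that the choice of the list did not use, the cyclic AMP response element TGACGTCA, bound by CREB and ATF factors, and its core TGACG. Each sequence is the 250 bases before the annotated start in RefSeq (GRCm38.p6), on the gene's strand, with every TGACG or its reverse complement CGTCA in capitals. The regions are chr7:19310046-19310295 (minus strand) for Fosb, chr1:191183334-191183583 (minus) for Atf3, chr15:101266596-101266845 (plus) for Nr4a1, chr7:45526269-45526518 (minus) for Ppp1r15a and chr1:134079156-134079405 (minus) for Btg2.
Fosb: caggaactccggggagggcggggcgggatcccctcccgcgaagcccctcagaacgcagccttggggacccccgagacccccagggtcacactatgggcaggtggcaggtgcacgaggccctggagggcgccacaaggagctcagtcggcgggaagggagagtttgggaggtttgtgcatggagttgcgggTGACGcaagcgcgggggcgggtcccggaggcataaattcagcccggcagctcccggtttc
Atf3: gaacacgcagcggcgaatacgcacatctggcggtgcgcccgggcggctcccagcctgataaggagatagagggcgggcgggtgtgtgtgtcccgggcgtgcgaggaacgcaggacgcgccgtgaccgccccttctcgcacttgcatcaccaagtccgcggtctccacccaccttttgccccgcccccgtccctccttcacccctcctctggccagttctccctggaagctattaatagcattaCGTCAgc
Nr4a1: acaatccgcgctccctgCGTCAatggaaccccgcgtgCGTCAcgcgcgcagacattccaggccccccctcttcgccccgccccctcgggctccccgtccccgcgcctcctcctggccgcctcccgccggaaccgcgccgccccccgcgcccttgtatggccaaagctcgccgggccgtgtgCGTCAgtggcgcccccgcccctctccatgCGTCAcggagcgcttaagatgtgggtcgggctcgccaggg
Ppp1r15a: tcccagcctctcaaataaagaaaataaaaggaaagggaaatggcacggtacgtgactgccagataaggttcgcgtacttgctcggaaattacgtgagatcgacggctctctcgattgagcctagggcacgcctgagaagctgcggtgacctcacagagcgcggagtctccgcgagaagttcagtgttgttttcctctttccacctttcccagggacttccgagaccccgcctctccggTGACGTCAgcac
Btg2: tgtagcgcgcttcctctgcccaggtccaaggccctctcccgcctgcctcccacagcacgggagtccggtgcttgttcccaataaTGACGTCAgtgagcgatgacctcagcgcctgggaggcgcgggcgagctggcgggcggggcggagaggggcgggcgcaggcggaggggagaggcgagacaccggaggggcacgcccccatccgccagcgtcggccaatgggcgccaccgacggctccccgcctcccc
Ppp1r15a and Btg2 hold the whole element, at -12 to -5 and at -166 to -159 from the start. Fosb holds the core once at -60 to -56, Atf3 once at -7 to -3, and Nr4a1 in 4 places. Both strands were searched, and a whole element also counts as a core. Among the 37 measured immediate early genes with a promoter sequence, 23 (62.2%) hold the core, compared with 29.7% of the 10070 measured genes and 19.8% of all 27025 promoters. The whole element was in 6 of the 37 (16.2%: Maff, Btg2, Dusp1, Ppp1r15a, Plk2 and Errfi1), against 2.98% and 1.77%. The 541 lower genes with a promoter held the core in 26.1%, which is not above the measured genes, so the share was raised in the list and not in the lower genes as a whole. The AP-1 site TGANTCA was in 2 of the 37 (5.41%, against 5.51% of measured genes), and the CArG box of serum response factor was also in 2 (5.41%, against 1.45%). The kappaB site and the GATA site AGATAA were in 5 each (13.5%), against 5.29% and 7.74% of measured genes. The core was chosen for this search after the data were seen, and a match is no evidence of binding.

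Several negative regulators of NF-kappaB were lower after JQ1, while the measured subunit genes were within 2-fold. Of 26 genes listed 25 were measured, and of these 6 (24%, against 5.77% of all genes) were at least 2-fold lower and none was higher. Their median was -0.40 (-0.15 in LSK). The median is above 0 when scaled to the median probe (0.35) and over the members with at least 2 probes (0.050). Tnfaip3, the A20 ubiquitin editor that shuts the pathway off, read 4.08 in DMSO MEP, 1.42 in JQ1 MEP, 1.34 in DMSO LSK and 1.1 in JQ1 LSK, a difference of -3.0 (8.02-fold). DMSO MEP was the highest array and JQ1 MEP was close to the LSK arrays. Nfkbiz, an atypical nuclear inhibitor protein, read 0.27 in DMSO MEP, -1.55 in JQ1 MEP, 0.02 in DMSO LSK and -0.23 in JQ1 LSK (-2.16), so that here JQ1 MEP was the lowest and DMSO MEP was near LSK. Nfkbia, the classical inhibitor IkappaB-alpha, read 5.22 in DMSO MEP, 4.45 in JQ1 MEP, 4.43 in DMSO LSK and 4.13 in JQ1 LSK (-1.10), again with DMSO MEP highest. The others past 2-fold were Nfkbid (-1.78), Zc3h12a (-1.30), an RNase that degrades cytokine mRNAs, and Birc3 (-1.0), an inhibitor of apoptosis. The subunit gene Rel was not measured. Rela (0.13), Nfkb1 (0.07) and Nfkb2 (-0.33) and the kinase genes Ikbkb (-0.40) and Chuk (-0.31) were within 2-fold. Traf1, at -0.96, was just inside the threshold.

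Promoters of 2 of these feedback genes are shown with their matches to the kappaB site, the sequence bound by NF-kappaB, in capitals. They are the 250 bases before the start of Tnfaip3 (chr10:19015411-19015660, minus strand, 1 of 2 annotated starts) and of Nfkbia (chr12:55492648-55492897, minus strand), from RefSeq GRCm38.p6.
Tnfaip3: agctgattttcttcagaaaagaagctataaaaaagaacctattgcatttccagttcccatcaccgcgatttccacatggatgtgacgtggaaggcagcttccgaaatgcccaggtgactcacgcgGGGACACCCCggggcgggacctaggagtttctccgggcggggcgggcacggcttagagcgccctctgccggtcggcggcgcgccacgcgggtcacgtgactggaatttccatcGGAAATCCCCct
Nfkbia: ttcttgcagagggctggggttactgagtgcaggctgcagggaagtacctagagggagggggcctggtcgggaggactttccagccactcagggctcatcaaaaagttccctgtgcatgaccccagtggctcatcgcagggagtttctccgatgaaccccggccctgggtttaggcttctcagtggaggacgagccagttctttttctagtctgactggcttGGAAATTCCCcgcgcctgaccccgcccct
Tnfaip3 holds the site at -125 to -116 and at -12 to -3, and Nfkbia at -29 to -20. Of the 21 measured genes of this list with a promoter sequence, 9 (42.9%) hold the site on either strand, against 5.29% of measured genes, 4.46% of all promoters and 6.10% of the lower genes. In the chemokine and cytokine list it was in 4 of 12 (33.3%).

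Several chemokines and other inflammatory effectors were lower in the same comparison. Of 35 listed, 22 were measured. Of these 10 (45.5%, against 5.77% of all genes) were at least 2-fold lower and 1 (4.55%, against 0.981%) was higher. The median was -0.97 (-0.58 in LSK, where 3 were lower). Cd69, an early activation antigen, read 2.85 in DMSO MEP, 0.64 in JQ1 MEP, 1.43 in DMSO LSK and 1.22 in JQ1 LSK (-2.54). Ccl3, a macrophage inflammatory protein and inhibitor of stem cell proliferation, read 1.17 in DMSO MEP, -0.64 in JQ1 MEP, 0.29 in DMSO LSK and -0.59 in JQ1 LSK (-2.14). Cxcl10, an interferon-induced chemokine, read 0.85 in DMSO MEP, -0.92 in JQ1 MEP, 1.24 in DMSO LSK and 0.36 in JQ1 LSK (-2.10). Cd69 and Ccl3 were highest in DMSO MEP and Cxcl10 in DMSO LSK, and all 3 were lowest in JQ1 MEP. Ccl4 (-1.97), Ccl2 (-1.64), Tnf (-1.24) and Il1b (-1.18) were also past 2-fold, and Il6 (-0.96) and Icam1 (-0.98) were just within it. Vcam1, an adhesion molecule of marrow macrophages and stroma, was the exception at 0.01 in DMSO MEP, 1.65 in JQ1 MEP, -1.44 in DMSO LSK and -1.37 in JQ1 LSK (1.31). A further 13 members were not above background on both MEP arrays.

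Long noncoding RNAs, among them RNAs that stay in the nucleus, were often lower on the JQ1 MEP array. Of 37 listed, 20 were measured and 13 were not on the array by name. Of the measured, 11 (55%, against 5.77% of all genes) were at least 2-fold lower and none was higher. The median was -1.09 against -0.03 in LSK. Malat1, an abundant RNA of nuclear speckles, read 5.55 in DMSO MEP, 2.28 in JQ1 MEP, 2.62 in DMSO LSK and 2.63 in JQ1 LSK (-3.61, 12.2-fold). Neat1, the scaffold of paraspeckles, read 4.14 in DMSO MEP, 1.02 in JQ1 MEP, 1.57 in DMSO LSK and 1.77 in JQ1 LSK (-3.46, 11-fold). In both the DMSO MEP reading stood more than 2 log2 units above every other array. Kcnq1ot1, the antisense RNA that silences an imprinted cluster, differed by -2.77 on its brightest probe and by -2.80 on its other probe. Xist, which coats the inactive X chromosome, differed by -2.33 and -3.30 on its probes, and Ftx from the same X-inactivation centre by -1.77. Airn, another imprinted antisense RNA, differed by -2.01. The host transcript of the miR-17 cluster, Mir17hg, differed by -2.26, which says nothing about the mature miRNAs. The cytoplasmic RNA Norad (-0.02) and the enzyme RNAs Rmrp (0.13) and Terc (0.29) were within 2-fold, as was Tug1 (0.03). The reading of an antisense RNA rests on the strand of its probe.

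Probe types differed in the share of lower calls. Of probes designed on RefSeq mRNAs, 5.89% of 16039 were lower, against 11.7% of all 24430 measured probes (0.901% were higher). The share was 16.7% of 438 probes for RefSeq noncoding RNAs, 24.8% of 3767 probes for genomic intervals and 48.7% of 784 probes for AK-accession cDNA clones. The clone probes had a median difference of -0.95 in MEP and -0.11 in LSK, and 68.1% of those measured on all arrays read highest on DMSO MEP. With the median gene of each array at 0, their medians were -2.55 and -2.71 on the LSK arrays, -1.83 on DMSO MEP and -3.06 on JQ1 MEP. The DMSO MEP array was thus above and the JQ1 MEP array below the LSK arrays. By gene biotype, 49 of 262 long noncoding RNA genes (18.7%, median -0.36) and 662 of 12178 protein-coding genes (5.44%) were lower. The part of these noncoding, clone and genomic signals in the differences of mRNA probes was not tested.

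**Figure D3:**
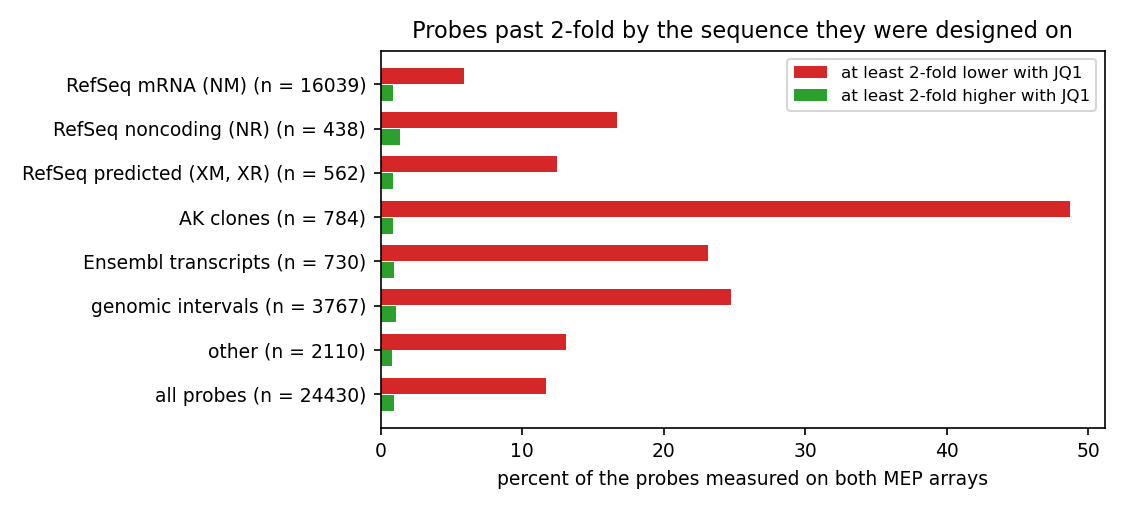
Bars give the percent of measured probes at least 2-fold lower or higher on the JQ1 MEP array, by the kind of sequence the probe was designed on. Lower probes range from 5.89% for RefSeq mRNAs to 48.7% for cDNA clones with AK accessions, while higher probes stay close to 1% in each class.

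Alpha-globin and a few other genes of red cell maturation were higher after JQ1, by less than the immediate early genes were lower. Of 10 genes in the globin list, 5 were measured, 2 were at least 2-fold higher and none was lower, with a median of 0.68. The alpha-globin gene Hba-a2 read 4.90 in DMSO MEP, 6.84 in JQ1 MEP, 2.28 in DMSO LSK and 1.5 in JQ1 LSK (1.60, 3.03-fold). Its near-identical copy Hba-a1 read 2.32 in DMSO MEP, 4.11 in JQ1 MEP, -0.49 in DMSO LSK and -1.13 in JQ1 LSK (1.45), and the probes may not tell the copies apart. Both were far above the LSK arrays in MEP and highest on JQ1 MEP. The beta-globin probes named Hbb-bt (0.68), Hbb-b2 (0.35) and Hbb-b1 (0.02) were within 2-fold. Hbb-bt read 5.64 in DMSO MEP, 6.66 in JQ1 MEP, 7.31 in DMSO LSK and 7.39 in JQ1 LSK, and was brighter on the LSK arrays than on the MEP arrays, whereas Hbb-b1 read 0.52 in DMSO MEP, 0.88 in JQ1 MEP, -1.43 in DMSO LSK and -1.63 in JQ1 LSK and was brighter on the MEP arrays.

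Most erythroid transcription factors were on the same side by smaller amounts, as were most genes of some other bright lists. None of 21 measured factors reached 2-fold. Above the median gene were 15 (71.4%), against 73.7% of mitosis and 80% of ribosome biogenesis genes. Their median was 0.14 at a median level of 4.28. All genes in the signal bin with a median level of 4.42 had a median of 0.17. Relative to the curve over signal the list's median was 0.15. Klf1 read 1.97 in DMSO MEP, 3.05 in JQ1 MEP, -1.61 in DMSO LSK and -1.76 in JQ1 LSK (0.75). Gata1 read 5.37 in DMSO MEP, 6.43 in JQ1 MEP, 2.98 in DMSO LSK and 2.81 in JQ1 LSK (0.72). Both were brighter in MEP than in LSK cells and highest in JQ1 MEP. The GATA1 cofactor gene Zfpm1 (0.62, with 3 probes between 0.62 and 0.73) and Gfi1b (0.69), a repressor required for both MEP lineages, lay close by. Gata2 (-0.01), Myb (0.10) and Lmo2 (0.04), which act earlier, did not differ from the median gene by more than the spread between probes, and the myeloid factor gene Spi1 read -0.47.

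In heme synthesis and iron handling, 1 of 26 measured genes (3.85%, against 0.981% of all genes) was at least 2-fold higher. Of this list 16 (61.5%) were above the median gene, against 67.6% of proteasome and 67.4% of replication genes. The median was 0.26 at a median level of 3.25. It was 0.11 over all genes in the signal bin with a median level of 3.41. Cpox, the mitochondrial coproporphyrinogen oxidase, read 3.58 in DMSO MEP, 5.15 in JQ1 MEP, 1.97 in DMSO LSK and 2.04 in JQ1 LSK (1.23, 2.34-fold). The transporters Abcb10 (0.77) and Abcb6 (0.57) and the housekeeping synthase gene Alas1 (0.63) were within 2-fold. Other enzymes of the pathway lay on either side, with Fech at 0.43, Alad at 0.31 and Uros at -0.30, and Hmox1, which degrades heme, at -0.80. Of 38 membrane, surface and enzyme genes of red cells, 29 (76.3%) were above the median gene (median 0.31). Past 2-fold, 2 (5.26%, against 0.981% of all genes) were higher and 1 (2.63%, against 5.77%) was lower. The called genes were Bcam, given above, Dmtn (1.53), a protein that bundles actin under the membrane, and the water and glycerol channel gene Aqp9 (-1.11). Skeleton genes Tmod1 (0.82), Add2 (0.78), Ank1 (0.56) and Sptb (0.54) and the anion exchanger gene Slc4a1 (0.64) were above the median gene within 2-fold. Car1 (-0.71), Ermap (-0.75) and Kel (-0.90) were below it, and Epor was at 0.33. Scaled to spike-in probes, the medians of the heme and red cell lists are below 0 (-0.32 and -0.27) and that of the globins is 0.10, and relative to a lowess curve over signal the 3 medians are 0.16, 0.18 and 0.54 in that order.

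**Figure D4:**
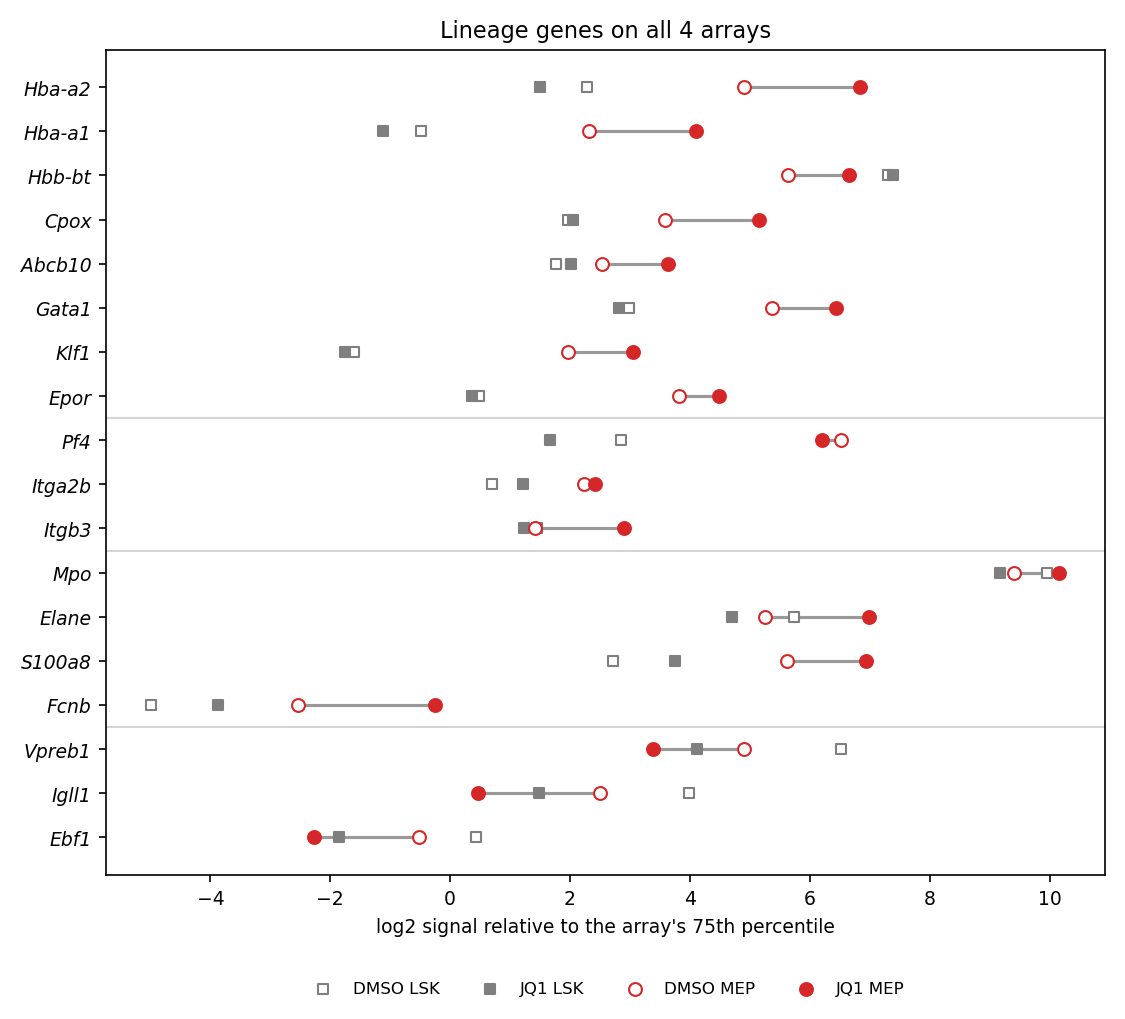
Levels of erythroid, megakaryocyte, granule and B-lineage genes on each of the 4 arrays (log2 relative to the 75th percentile, 1 array in each group). Hba-a2, Gata1 and Cpox lie furthest right on JQ1 MEP, whereas Igll1 and Vpreb1 lie furthest right on DMSO LSK and are lower under JQ1 in both cell types.

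Megakaryocyte and platelet genes did not move together. Of 36 listed, 32 were measured, with a median of 0.13. Of these, 1 (3.1%) was at least 2-fold higher and 2 (6.25%) were lower, against 0.981% and 5.77% of all genes. Itgb3, the beta chain of the fibrinogen receptor, read 1.41 in DMSO MEP, 2.89 in JQ1 MEP, 1.44 in DMSO LSK and 1.24 in JQ1 LSK (1.14). Its partner Itga2b read 2.24 in DMSO MEP and 2.41 in JQ1 MEP (-0.17), on the other side of the median gene. Pf4, an alpha granule chemokine, read 6.51 in DMSO MEP, 6.20 in JQ1 MEP, 2.84 in DMSO LSK and 1.66 in JQ1 LSK (-0.66) and was far brighter in MEP than in LSK cells on both arrays. Myl9 (-1.32), a myosin light chain, and Cd226 (-1.28), an adhesion receptor, were past 2-fold lower. Cd226 was lower in LSK too (-2.43), and Myl9 was not above background on both LSK arrays. The genes Vwf (0.18), Gp9 (-0.04) and Runx1 (-0.14) lay near the median gene.

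Most genes of neutrophil granules were above the median gene on the JQ1 MEP array, 16 of 19 primary granule and promyelocyte genes and 9 of 13 alarmins and secondary granule genes. Of the first list, 3 were at least 2-fold higher and 1 lower (median 0.42, against -0.37 in LSK). Elane, neutrophil elastase, read 5.25 in DMSO MEP, 6.99 in JQ1 MEP, 5.73 in DMSO LSK and 4.71 in JQ1 LSK (1.4). It was lower under JQ1 in LSK and higher under JQ1 in MEP, a difference between cell types that was not tested. Fcnb (1.95), a ficolin of granulocyte precursors, and Gstm1 (1.14) were the others higher, and Csf3r (-1.29), the receptor for G-CSF, was lower. Mpo, myeloperoxidase, read 9.41 in DMSO MEP, 10.16 in JQ1 MEP, 9.96 in DMSO LSK and 9.18 in JQ1 LSK (0.41), so this granule gene was bright on every array. Of the alarmins and secondary granule genes, 2 were higher, Wfdc21 (1.23) and Lrg1 (1.03). S100a8, an alarmin, read 5.62 in DMSO MEP, 6.94 in JQ1 MEP, 2.71 in DMSO LSK and 3.75 in JQ1 LSK (0.98), just inside the threshold, and was brighter on both MEP arrays than on both LSK arrays. The summed signal of 9 neutrophil and promyelocyte markers, all above background on the MEP arrays, was 1249 on DMSO MEP and 2206 on JQ1 MEP. On the LSK arrays it was 1750 and 1115. Mpo made up 681 and 1147 of the MEP sums, and the other 8 markers summed to 568 and 1059. The part of such cells in the MEP sort was not tested. Scaled to spike-in probes, the medians of the lists are -0.16 and -0.084.

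Monocyte genes in MEP lay on both sides. Of 22, 2 were lower, Lyz2 (-1.26) and Cd68 (-1.07), and 2 higher, Ly6c1 (1.38) and Vcam1. The median was -0.35, whereas in LSK it was -1.13 with 13 lower. Of 8 monocyte and macrophage markers 6 were above background on each MEP array (not C1qa and C1qc), with sums of 14.5 and 18.7. All 11 genes of MHC class II presentation were below the median gene (median -0.65, LSK -0.86), although the median is 0.10 when scaled to the median probe. The master regulator gene Ciita alone was past 2-fold (-2.18), with the invariant chain gene Cd74 at -0.48 and H2-Aa at -0.89. In the interferon response list, 5 of 45 were lower and none was higher (median -0.22). The factor gene Irf1 (-1.01) and the antiviral gene Oas2 (-1.74) were among the lower. Isg15 (-0.50), Ifit1 (-0.50) and Bst2 (0.01) were within 2-fold.

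Many B-lineage genes were lower under JQ1 in the MEP samples, as they were in LSK. Of 27 listed, 22 were measured. In MEP 13 (59.1%, against 5.77% of all genes) were at least 2-fold lower (median -1.34). In LSK 14 were lower (median -2.32), where the share over all genes was 3.22%. The MEP median is -0.59 when scaled to the median probe and -0.075 over the 3 members with at least 2 probes. Igll1, of the surrogate light chain, read 2.50 in DMSO MEP, 0.46 in JQ1 MEP, 3.98 in DMSO LSK and 1.48 in JQ1 LSK (-2.38). Vpreb1, its partner, read 4.91 in DMSO MEP, 3.39 in JQ1 MEP, 6.52 in DMSO LSK and 4.12 in JQ1 LSK (-1.86). Each was highest on DMSO LSK and lower under JQ1 in both cell types, and 2 of 21 members were highest on DMSO MEP, so their order of arrays was unlike that of the immediate early genes. The B-lineage factor gene Ebf1 (-2.08) was lower too, while Dntt (0.47) and Il7r (0.36), also used by earlier progenitors, were not. The summed signal of 7 B-cell markers was 55.8 on DMSO MEP and 23.4 on JQ1 MEP, and 156 and 38.8 on the LSK arrays. Of these markers Pax5 was not above background on either MEP array and Ms4a1 only on DMSO MEP. Whether B-lineage cells were in the sort was not tested.

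Lists of other cell types gave calls in small numbers. In the T and NK cell list 8.7% of genes were lower and 8.7% higher. These shares were 15% and 5% in the mast cell and basophil list, and 14.3% and 7.14% in the stromal and endothelial list. Over all genes they were 5.77% and 0.981%. In the T and NK cell list 2 of 23 genes were lower (Xcl1 at -2.35 and Cd2 at -1.46) and 2 higher (Tcf7 at 1.79 and Pdcd1 at 2.17). In LSK these genes differed by -2.85, -1.93, -0.36 and 0.30 in that order. The sums over 8 markers were 76.8 on DMSO MEP and 114 on JQ1 MEP. Nkg7, which is also in the primary granule list, made up 52.7 and 89.2 of these sums, and the other 7 markers summed to 24.1 and 24.6. In the mast cell and basophil list 3 of 20 were lower (Ccl3, Tpsb2 at -1.53 and Cd200r3 at -1.08) and 1 higher (Mcpt4 at 1.20). The mast cell sums were 31.0 and 35.1, far under the 310 and 264 of the LSK arrays. Of 28 stromal and endothelial genes 14 were measured, with Emcn (-1.72) and Pecam1 (-1.29) lower and Vcam1 (1.31) higher. The sums over 6 stromal and endothelial markers were 8.58 and 13.7, of which the leptin receptor gene Lepr made up 6.88 and 11.5. Among 25 stem cell surface genes 2 were lower, Emcn and Procr (-1.33), and their median was -0.06. The median of 18 stem cell transcription factors was -0.05.

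The genes of the drug's own targets and of the mutated pathway were within 2-fold for the most part. None of 26 measured BET, P-TEFb and elongation genes was called (median 0.06). Hexim1, the P-TEFb inhibitor that often serves as a marker of BET inhibition, read 1.13 in DMSO MEP, 1.13 in JQ1 MEP, 0.85 in DMSO LSK and 1.22 in JQ1 LSK. Relative to the median gene it differed by -0.34 in MEP and by 0.31 in LSK, opposite in sign and within 2-fold. Myc, which BET inhibitors lower in many blood cancers, read 3.87 in DMSO MEP, 4.35 in JQ1 MEP, 4.17 in DMSO LSK and 4.35 in JQ1 LSK (0.14), and none of 11 genes of the Myc network was called. Jak2 (-0.01), Stat5a (0.23) and Stat5b (-0.02) were near the median gene. Of 32 genes of JAK2 and STAT5 signalling, 2 were lower, Csf3r and the kinase gene Pim1 (-1.17), a STAT5 target that read 2.86 in DMSO MEP, 2.03 in JQ1 MEP, 2.33 in DMSO LSK and 2.45 in JQ1 LSK. The feedback genes Cish (0.36), Socs1 (0.75), Socs2 (-0.66) and Socs3 (-0.93) lay on either side within 2-fold. Of 32 cytokine receptor genes Csf3r alone was called.

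Polycomb genes were largely level. Ezh2 read 3.31 in DMSO MEP, 3.69 in JQ1 MEP, 3.36 in DMSO LSK and 3.43 in JQ1 LSK (0.04). All groups carry the same deletion, so the probe tests nothing between them. It gave signal on all arrays, and whether it lies in the deleted part is not known here. Of 12 PRC2 genes, Phf1 (-1.53), an accessory subunit, was called, and of 19 PRC1 genes none was. The INK4 locus, a Polycomb target, was higher. Cdkn2a read 1.92 in DMSO MEP, 3.49 in JQ1 MEP, 1.24 in DMSO LSK and 0.85 in JQ1 LSK (1.23, and 1.28 on its other probe), and was highest on JQ1 MEP. Cdkn2b, its neighbour, read -1.69 in DMSO MEP and -0.32 in JQ1 MEP (1.03). Cdkn1a (0.56) and Cdkn1b (-0.54) were within 2-fold on opposite sides. Among fetal-type genes Igf2bp3 was higher (1.36) and Dlk1 lower (-1.12), with Hmga2 at -0.77 and Lin28b at 0.22.

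Growth and housekeeping genes made few calls. Of 40 ribosome biogenesis genes, 32 were above the median gene (median 0.30, or -0.29 scaled to spike-in probes), and Noc3l (-1.33) was lower. Nucleolin, Ncl, was at 0.54 and nucleophosmin, Npm1, at 0.18. None of 38 mitosis genes (median 0.14), 43 replication genes (0.17) or 16 G1 cyclin and kinase genes was called, with Plk1 at 0.82, Mcm7 at 0.51 and Cdk6 at 0.05. Cytosolic ribosomal protein genes had a median of 0.04 over 81 genes and 1 call, Rps4l (1.14). None of 77 mitochondrial ribosomal protein, 79 respiratory chain, 37 proteasome and 41 spliceosome genes was called, and their medians lay between 0.06 and 0.19.

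Stress and survival genes were mixed. Of 29 heat shock genes, the inducible Hspa1a and Hspb1 were lower (6.9%, against 5.77% of all genes). Hspa1a read 3.76 in DMSO MEP, 1.53 in JQ1 MEP, 1.78 in DMSO LSK and 0.00 in JQ1 LSK (-2.57, and -1.85 in LSK). Its near-identical copy Hspa1b was not on the array by name, and a probe may read both copies. Hspb1 read 1.80 in DMSO MEP, 0.06 in JQ1 MEP, -0.86 in DMSO LSK and -1.91 in JQ1 LSK (-2.08). The constitutive chaperone genes Hspa8 (0.12) and Hsp90ab1 (0.35) were within 2-fold. Of 16 Bcl2 family genes, 2 were lower, the cell death gene Pmaip1 (-1.20) and the survival gene Bcl2 (-1.0), with a median of -0.47 that is 0.28 when scaled to the median probe. Bcl2l1, the survival gene of late erythroid cells, was at 0.23. Of 25 p53 genes, 3 were lower (Btg2, Mdm4 at -1.46 and Pmaip1).

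**Figure D5:**
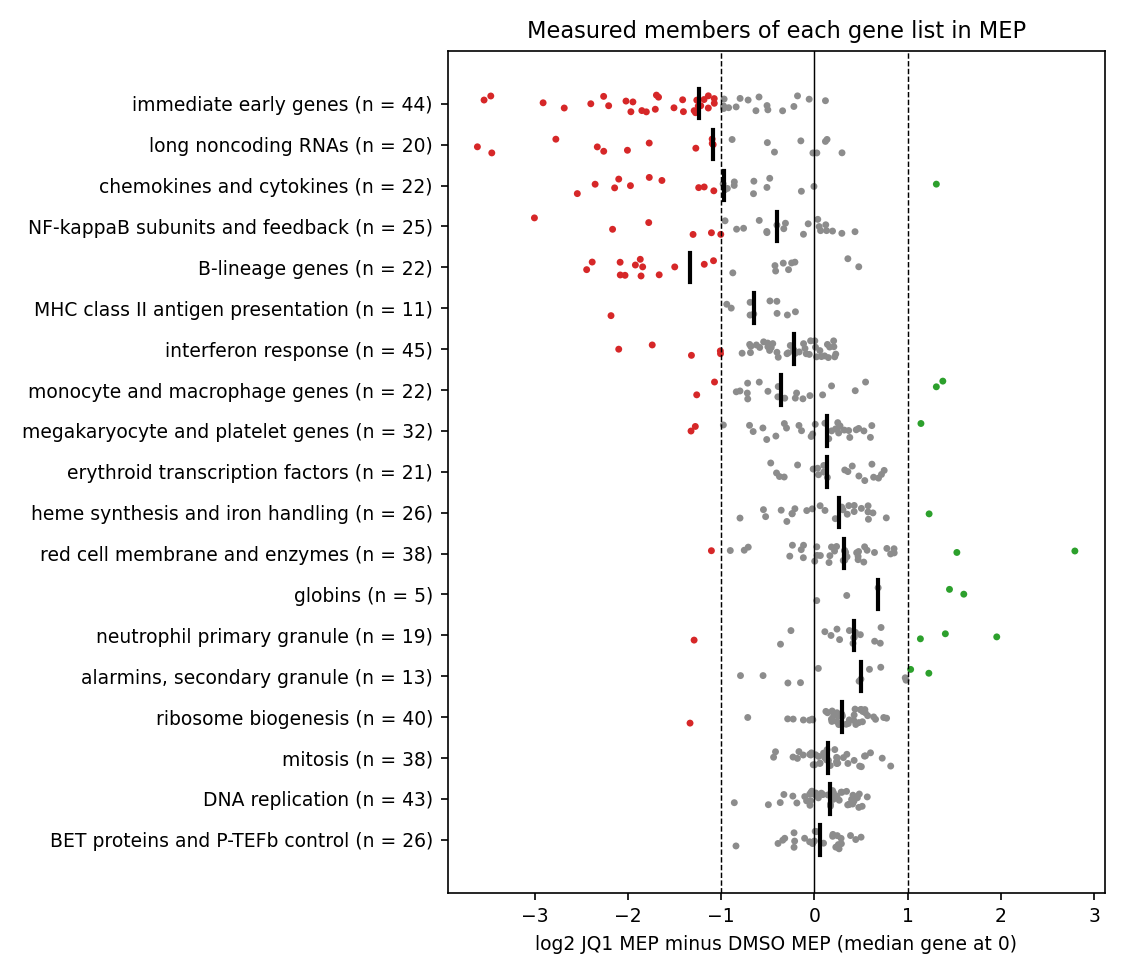
Points are the measured members of each gene list, with the JQ1 minus DMSO difference in MEP relative to the median gene on the horizontal axis (log2) and the list's median marked. The immediate early, noncoding RNA, chemokine and B-lineage lists have medians of -1.23, -1.09, -0.97 and -1.34, whereas the globin list has a median of 0.68 and most others lie near 0.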

How the data were processed

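RNA from sorted MEP and LSK cells was hybridised to 4 one-colour Agilent arrays, 1 for each group. Per the labels' protocols, 20 ng of total RNA was amplified and labelled with Cy3 together with spike-in controls. Per the file headers, the authors used Agilent Feature Extraction 10.7.1.1 on array design 028005 (GE1_107_Sep09 settings), and the deposited scanner files hold background-subtracted intensities and other marks, such as well above background. The authors' deposited table of normalized values is a linear ratio and was used as an alternative.

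Log2 processed signals of unflagged spots were averaged by probe and scaled to the array's 75th percentile. Of 55681 probes, 28026 were named through RefSeq accessions (GRCm38.p6), giving 21154 genes, each read by its brightest probe. A gene was measured if well above background on both MEP arrays. The script was tested on simulated data. Genes were named by rule: the 10 highest and lowest, up to 6 called members of each list in each direction and its 2 brightest, key genes, bounds, and genes whose every probe moved 2-fold. Other list members named were chosen after their values were seen. Members and all 51 lists were chosen with earlier results of these data known. The promoter sequences are from RefSeq, and 10070 of 12540 measured genes matched. Alternatives were normexp background correction (limma 3.58.1; offset 50, on the median signal columns, since the mean signal planned was not used here), quantile normalization, a lowess curve, other scalings, filters and probe rules. Every array column of the table was mapped. Some genes are not reported here.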

Additional observations from a re-analysis of the deposited data

How the results depend on the processing

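No paired analysis was possible because each group has 1 array. Leaving out a replicate was not possible for the same reason. The numbers of genes at least 2-fold higher and lower on JQ1 MEP were 52 and 310 with normexp background correction, 295 and 480 with quantile normalization, 3037 and 172 when scaled to the median probe without centring, 32 and 2476 when scaled to 8 spike-in probes without centring, 373 and 366 with the 75th percentile without centring, 595 and 2304 with no background filter, 16 and 156 among genes brighter than the median, and 5 and 49 among genes with at least 2 probes by the probe closest to 0. The authors' deposited table (123 and 720), a lowess curve (172 and 561) and the mean over probes (126 and 679) stayed within 1.5 times. Of the 723 lower genes, 307 remained under normexp, 447 under quantile and 550 under the lowess curve. Under scaling to the median probe and to spike-in probes the list medians were, in this order, -0.48 and -1.81 for immediate early genes, -0.22 and -1.55 for chemokines, -0.34 and -1.67 for long noncoding RNAs, -0.59 and -1.92 for B-lineage genes, 1.44 and 0.10 for globins, 1.01 and -0.32 for heme synthesis, 1.07 and -0.27 for red cell genes, 1.05 and -0.29 for ribosome biogenesis, and 0.35 and -0.98 for NF-kappaB. The B-lineage median was -1.94 among genes above the median signal and -0.075 with at least 2 probes, where NF-kappaB was at 0.050. Of the 51 list medians, 28 changed sign under spike-in scaling, 18 under the median probe, and 12 or fewer under each of the others. Beside those given, the ones at least 0.39 from 0 (the SD between probes of a gene) that changed sign were primary granule genes (-0.16) and alarmins (-0.084) under spike-in scaling, alarmins (-0.046) without the background filter, and MHC class II (0.10), the Bcl2 family (0.28) and Hox genes (0.19) under the median probe. These shifts of scaling are the construction of that alternative. For the others the cause was not tested. None of the 223 genes named by rule changed sign after a 2-fold call. Signal over background limits the comparison to 59.3% of the genes on the array.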

Other observations

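Some lists outside the groups above also held named genes that differed between the MEP arrays. Of 29 measured TGF-beta and BMP genes, 3 (10.3%, against 5.77% of all genes) were at least 2-fold lower on JQ1 MEP and none was higher (median 0.01). These were Smad6 (-2.26), an inhibitory SMAD, Id3 (-1.63, and -1.94 in LSK), an inhibitor of helix-loop-helix factors, and Bmp2 (-1.30). Smad6 read -1.40 in DMSO MEP, -3.32 in JQ1 MEP, -2.40 in DMSO LSK and -2.75 in JQ1 LSK. Tgfb1, a driver of marrow fibrosis, was at 0.34. Of 18 matrix and fibrosis genes, 3 were higher, the basement membrane collagen gene Col4a2 (2.02), the gelatinase gene Mmp2 (1.62) and Spon2 (2.24), and Spp1 (-1.21) was lower. Of 39 Hox genes 10 were measured, with a median of -0.56, and Hoxa3 (-1.02) was past 2-fold, while Hoxa9 was at -0.62. Of 57 developmental factors under Polycomb control 8 were measured and Bmp2 alone was called. Of 51 histone genes, H4c8 (-1.37) and the linker histone gene H1f0 (-1.07) were lower (3.92%, against 5.77% of all genes). Probes of the replicating histone copies may be shared.

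Metabolic genes made few calls. The 34 cholesterol and fatty acid genes had a median of 0.17. In glycolysis and hypoxia (34 genes, median 0.20) P4ha2 (1.14), a collagen prolyl hydroxylase, was higher, and Gapdh was at 0.58. In lysosomes and autophagy (40 genes, median -0.04) Atg9a (-1.97), an autophagy membrane protein, was lower, and in the ATF4 and unfolded protein response (32 genes, median 0.17) Ern1 (-1.12), its sensor, was lower. None of 18 amino acid transporter genes was called, with Slc7a5 at 0.82.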
